A study of Rattus norvegicus with 4 samples.

Results

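Peptidase inhibitor genes were followed in the lumbar dorsal root ganglia (DRGs) of young rats treated with vehicle or cisplatin. Members were chosen by gene symbol among the protein-coding genes of the deposited count table, and comprised the serpins except Serping1, the cystatins, Timp1 to Timp4, Reck, the Spint, Spink and Wfdc genes, Slpi, A2m, the Itih genes, Pi15 and Pi16. This gave 92 genes under 88 distinct symbols, of 33506 genes in the table and 22293 protein-coding genes. Reads were counted for 62 of the 92 genes in at least a single library, and 36 passed the filter on low counts and could be tested. The rule itself used symbols and no measured value.

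Each group comprised 2 libraries. Wistar rats of wild-type genotype received vehicle (PBS) or cisplatin, a platinum-based chemotherapeutic that damages sensory neurons, at 0.3 mg/kg on postnatal day (P)14 and P16. Tissue was collected 16 days after treatment by the sample labels but at P23 by the published methods, and this was not resolved here. Sample titles number the rats of each group, each library pooled several DRGs, and the sex of the rat behind each library was not stated, so p-values measure the spread between these 4 libraries.

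Peptidase inhibitors hold proteolysis in check in and around cells. Most serpins trap a serine protease by offering a reactive loop that the enzyme cleaves and then cannot leave, cystatins block the cysteine proteases of lysosomes, and TIMPs occupy the active site of matrix metalloproteases. In peripheral nerve and ganglia these inhibitors face the plasminogen activators, cathepsins and matrix proteases that neurons, glia, fibroblasts and leukocytes release during growth, remodelling and inflammation.

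Library totals ran from 21384801 counts (vehicle replicate 2) to 25618417 counts (cisplatin replicate 2). Markers of sensory neurons (14 of 14) and of Schwann cells (7 of 7) were all detected. Levels were expressed as CPM, counts scaled to library size with TMM factors, to compare libraries, or as FPKM, which also divides by gene length, to compare genes. Vehicle replicate 1 stood apart, with 460 CPM summed over 4 skeletal muscle markers against 15.0 to 50.6 CPM in the other libraries, and 60.4 CPM over 3 oligodendrocyte markers against 6.30 to 7.42 CPM. Summed Schwann cell markers were 61539 and 48120 CPM in replicate 1 of vehicle and cisplatin, and 156386 and 137151 CPM in replicate 2. In whole ganglia, fewer cells of a type and less RNA per cell cannot be told apart.

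None of the 36 tested inhibitor genes was called (adjusted p under 0.05, at least 1.5-fold) by edgeR's quasi-likelihood test, against 0% of all 14719 genes tested called higher and 0.00679% called lower. DESeq2, which called 0.255% of all genes higher and 0.433% lower, and limma on log2(FPKM + 1) and log2(FPKM + 0.1), which called 0.0136% and 0.00679% in each direction, likewise called 0 of them. Without adjustment, at p under 0.05 and the same fold change, 5 members were higher after cisplatin (Serpina11, Cstb, Wfdc1, Serpinb1a and Serpina1), where 2.77% of all genes tested were, and 1 was lower (Pi15), where 5.18% were. These 6 became 3 with an offset for gene length (Serpina11, Wfdc1 and Pi15), where 1.54% of all genes tested were higher and 4.58% lower. Adjusted p-values of the members ranged from 0.522 to 0.997. Both cisplatin libraries lay above both vehicle libraries for 12 of the 36 members, compared with 20.6% of all genes tested, and below them for 4, compared with 21.2%. For a single value, the smallest p of an exact permutation test (two-sided) with 2 libraries in each group is 0.333.

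The fitted log2 fold change, cisplatin against vehicle, was above 0 for 22 members and below 0 for 14, whereas 49.1% of all genes tested were above 0. Its median over the members was 0.22, against -0.01 over all genes tested, and was 0.42 without cisplatin replicate 2. With an offset for gene length the members' median was 0.089, and 20 of the 36 were above 0. Members with a positive fold change had a median length of 1304 bases, those with a negative one 2119.5 bases, and all genes tested 2371 bases.

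**Figure D1:**
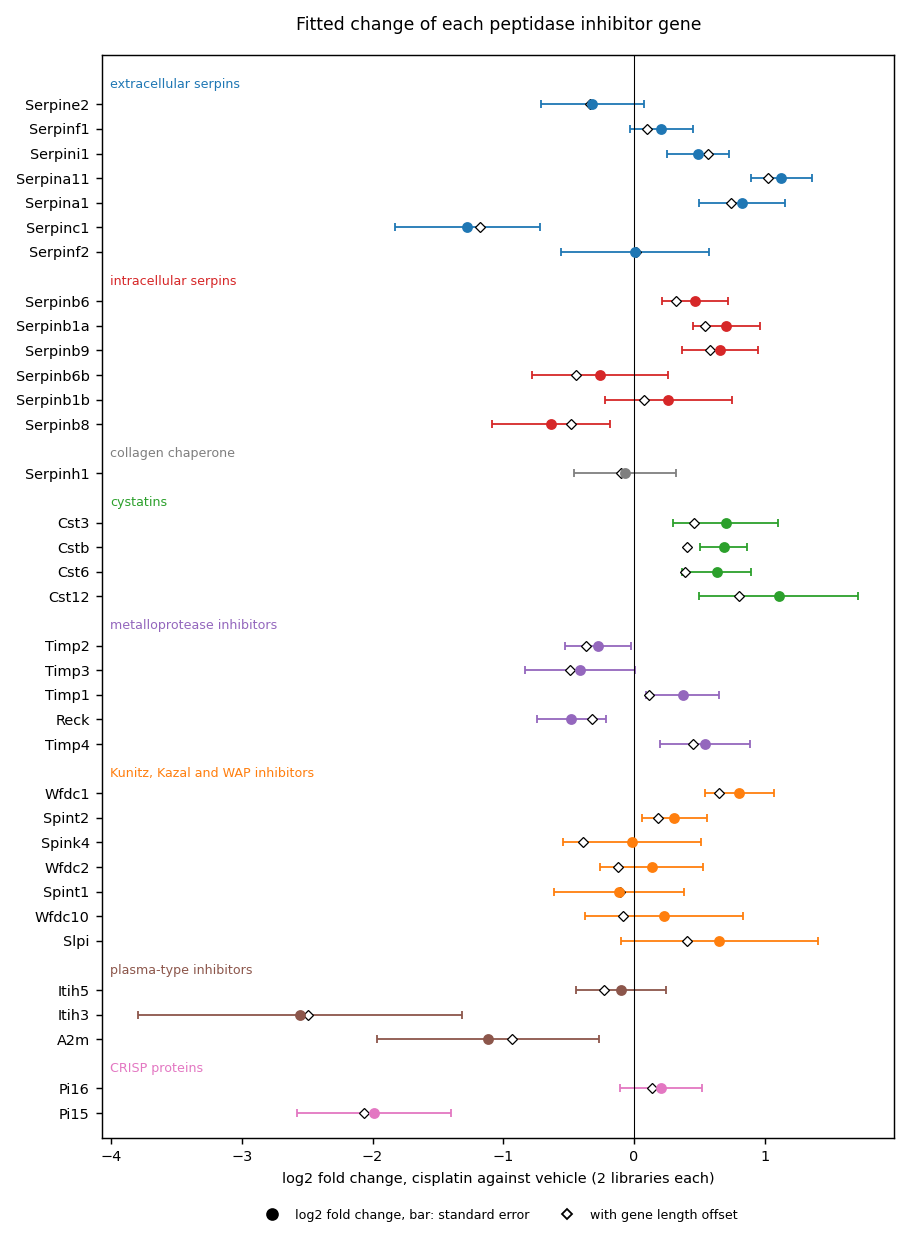
Fitted log2 fold change of the tested peptidase inhibitor genes reported here, cisplatin against vehicle with 2 libraries each, by family (circles, bars show the standard error), and the same with an offset for gene length (open diamonds). The 4 cystatins all lie to the right of 0, and 3 of the 5 metalloprotease inhibitors and all 3 plasma-type inhibitors lie to the left.

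Cystatins were the family in which the groups separated for the largest share of the tested genes. All 4 tested cystatins were higher in both cisplatin libraries than in either vehicle library, as were 20.6% of all genes tested, with a median log2 fold change of 0.69, and of 0.43 with the length offset. None reached significance after adjustment. The family had a median gene length of 712.5 bases. The meningeal markers separated the groups in the same direction, at 116 and 105 CPM after vehicle and 356 and 390 CPM after cisplatin when summed, with all 5 tested markers fitted above 0. Most of that sum was Ptgds, at 82.9 and 74.2 CPM after vehicle and 318 and 341 CPM after cisplatin, and its part in the cystatin values was not tested.

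Cst3, which encodes cystatin C, the main secreted inhibitor of cysteine cathepsins, was the most abundant member at a mean of 1806 FPKM. It measured 815 and 1396 CPM in vehicle replicates 1 and 2, and 1483 and 2111 CPM in cisplatin replicates 1 and 2. The groups did not overlap, but vehicle replicate 2 and cisplatin replicate 1 lay close together, and replicate 2 was the higher library in each group. The log2 fold change was 0.70 (SE 0.40, edgeR adjusted p = 0.598), 0.46 with the length offset, and between 0.38 and 1.15 when each library was left out in turn. Cst3 alone held 0.0876% and 0.128% of all counts in the vehicle libraries, and 0.149% and 0.194% in the cisplatin libraries. By FPKM it ranked 29th and 23rd among protein-coding genes in the vehicle libraries and 24th and 13th in the cisplatin libraries.

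Cst3 accounted for 40.9% and 49.0% of the members' summed FPKM after vehicle and for 54.3% and 58.6% after cisplatin. The other members together summed to 2481 and 3177 CPM after vehicle and to 2467 and 3105 CPM after cisplatin. Without Cst3 the groups overlapped, and replicate 2 was the higher library in each.

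Cstb encodes cystatin B, a cytosolic inhibitor of the same cathepsins. It measured 46.1 and 53.0 CPM after vehicle and 81.8 and 77.7 CPM after cisplatin. The gap between the groups was wider than the spread within either of them. Its log2 fold change was 0.69 (SE 0.18, unadjusted p = 0.0103, edgeR adjusted p = 0.522), and 0.41 with the length offset, at which the unadjusted p was 0.0622.

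Cst6 encodes cystatin E/M, an inhibitor of legumain and of cathepsins, and measured 9.19 and 6.86 CPM after vehicle and 13.4 and 11.5 CPM after cisplatin. Cst12 measured 4.23 and 1.37 CPM after vehicle and 7.83 and 4.34 CPM after cisplatin, so that vehicle replicate 1 and cisplatin replicate 2 were nearly equal. Replicate 1 was the higher library of each group for Cst6 and Cst12, opposite to Cst3. Their log2 fold changes were 0.63 (SE 0.26) for Cst6 and 1.11 (SE 0.61) for Cst12. Leaving out each library in turn gave 0.44 (without vehicle replicate 2) to 0.87 (without vehicle replicate 1) for Cst6 and 0.53 to 2.15 for Cst12, with the same libraries at the ends. Of the remaining 6 cystatins, Cst7 and Cst8 had counts too low to test, with at most 12 counts of Cst7 in a library, and Cst11, Cst13, Cst5 and Csta had none.

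Cst3 and Cst12 lie in the cystatin cluster of chromosome 3 (Rnor_6.0), with the untested Cst8 and Cst13 between them, at positions 143219686 to 143223615 on the minus strand and 143119687 to 143123582 on the plus strand. The 250 bases before the start site of 3 cystatin genes that were higher in both cisplatin libraries are shown to compare their promoter letters. They are taken from RefSeq (GRCr8, a different build from the count table), run 5′ to 3′ on the strand of the gene, and capitals mark matches to the motifs searched on either strand.
Cst3, chr3:156793938-156794187, minus strand: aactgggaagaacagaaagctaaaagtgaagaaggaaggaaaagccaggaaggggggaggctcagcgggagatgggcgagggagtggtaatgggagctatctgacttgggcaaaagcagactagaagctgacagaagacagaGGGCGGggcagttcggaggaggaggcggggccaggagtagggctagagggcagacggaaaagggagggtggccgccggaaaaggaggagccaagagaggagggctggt
Cst12, chr3:156687942-156688191, plus strand: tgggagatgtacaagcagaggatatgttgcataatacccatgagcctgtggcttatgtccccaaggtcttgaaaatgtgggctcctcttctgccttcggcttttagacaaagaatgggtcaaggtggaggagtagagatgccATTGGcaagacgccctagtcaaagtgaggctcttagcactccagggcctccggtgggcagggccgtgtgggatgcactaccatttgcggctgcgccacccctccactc
Cstb, chr20:10247200-10247449, minus strand: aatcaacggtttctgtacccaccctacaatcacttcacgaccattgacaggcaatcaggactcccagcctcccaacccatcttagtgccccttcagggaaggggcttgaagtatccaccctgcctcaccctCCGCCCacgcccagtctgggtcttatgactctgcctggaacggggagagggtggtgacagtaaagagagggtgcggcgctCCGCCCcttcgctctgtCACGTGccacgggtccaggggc
The motifs were those of a TATA box (TATAAA), of an E-box (CACGTG), of a GC box (GGGCGG), of an AP-1 site (TGACTCA), of a cAMP response element (TGACGTCA) and of a CCAAT box, spelled as it is named. They occur in 13.1%, 5.79%, 32.4%, 3.98%, 1.7% and 34.3% of 27457 rat promoter windows of this length. The Cst3 window held a GC box, that of Cst12 a CCAAT box, and that of Cstb 2 GC boxes and an E-box. No motif was present in all 3, and the CG dinucleotide occurred 8, 6 and 11 times.

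Extracellular serpins had values in both directions. Of 21 members 8 were tested, 6 with a positive and 2 with a negative log2 fold change, and the median was 0.35. The groups were separate for 5 of the 8, with cisplatin above vehicle in 4, among them Serpina11, Serpina1 and Serpini1, and below it in Serpinc1, where 20.6% and 21.2% of all genes tested were above and below.

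Serpina11, a clade A serpin, had the smallest p-value of all members. It measured 7.83 and 10.1 CPM after vehicle and 20.9 and 18.1 CPM after cisplatin. Both cisplatin libraries were above both vehicle libraries by more than the spread within either group. Cisplatin and vehicle differed by 1.13 on the log2 scale (SE 0.24, unadjusted p = 0.00374, edgeR adjusted p = 0.522), a value that stayed between 0.96 and 1.32 when each library was left out in turn. With the length offset it was 1.02, with an unadjusted p of 0.00494, and DESeq2 gave an adjusted p of 0.0565.

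Serpina1 encodes alpha-1-antitrypsin, the plasma inhibitor of neutrophil elastase, and lies beside Serpina11 on the minus strand of chromosome 6 (Rnor_6.0, 127610243 to 127632265, with Serpina11 at 127647184 to 127656603). It measured 4.67 and 4.01 CPM after vehicle and 9.29 and 6.12 CPM after cisplatin, and its groups did not overlap. Its log2 fold change was 0.83 (SE 0.33, unadjusted p = 0.0497, edgeR adjusted p = 0.528). Both genes are known for strong expression in liver. The hepatocyte markers Alb, Apoa1, Fgb and Ttr summed to 0.439 and 0.356 CPM after vehicle and 0.984 and 0.723 CPM after cisplatin, with 2 and 2 against 11 and 6 counts of Alb. Their sum was thus also higher in both cisplatin libraries, as were Alb, Apoa1 and Fgb singly. Ttr overlapped, with 3 and 0 counts after vehicle and 1 and 2 after cisplatin. At 0 to 11 counts per library, none of these markers passed the filter on low counts, and their part in the result was not tested. The RefSeq promoter windows of this pair, which were both higher after cisplatin and lie next to each other, were as follows.
Serpina1, chr6:128653126-128653375, minus strand: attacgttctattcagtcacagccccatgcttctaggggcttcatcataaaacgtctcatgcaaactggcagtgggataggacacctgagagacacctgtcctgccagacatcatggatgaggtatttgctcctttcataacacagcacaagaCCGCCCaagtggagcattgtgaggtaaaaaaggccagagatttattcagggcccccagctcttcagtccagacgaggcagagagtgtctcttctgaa
Serpina11, chr6:128677455-128677704, minus strand: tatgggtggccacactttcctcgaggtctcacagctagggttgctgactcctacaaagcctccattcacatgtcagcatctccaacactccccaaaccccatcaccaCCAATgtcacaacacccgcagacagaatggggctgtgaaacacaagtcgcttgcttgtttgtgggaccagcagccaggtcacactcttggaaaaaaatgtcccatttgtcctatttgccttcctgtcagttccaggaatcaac
The windows shared none of the motifs searched: that of Serpina1 held a GC box and that of Serpina11 a CCAAT box.

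Serpine2 encodes protease nexin-1, a glia-derived inhibitor of thrombin and plasminogen activators, and was the most abundant extracellular serpin at a mean of 154 FPKM. It measured 277 and 473 CPM after vehicle and 218 and 383 CPM after cisplatin. The groups overlapped, and replicate 2 was higher than replicate 1 in each group, as for the summed Schwann cell markers. The log2 fold change was -0.32 (SE 0.40), but 0.12 without vehicle replicate 2 and 0.05 without cisplatin replicate 1.

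Serpinf1 encodes pigment epithelium-derived factor, a secreted serpin without inhibitory activity, and measured 47.9 and 64.3 CPM after vehicle and 55.8 and 73.9 CPM after cisplatin. Serpini1 encodes neuroserpin, the neuronal inhibitor of tissue plasminogen activator, and measured 32.5 and 27.2 CPM after vehicle and 48.6 and 35.2 CPM after cisplatin. The groups overlapped for Serpinf1 and were separate for Serpini1. The log2 fold changes were 0.21 (SE 0.24) for Serpinf1 and 0.49 (SE 0.24, edgeR adjusted p = 0.556) for Serpini1.

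Serpinc1 and Serpinf2 act in coagulation and fibrinolysis and were present at low levels. Serpinc1, encoding antithrombin, had 91 and 91 counts after vehicle and 23 and 59 counts after cisplatin, with a log2 fold change of -1.27 (SE 0.55, edgeR adjusted p = 0.536) that was -2.18 without cisplatin replicate 2 and -0.70 without cisplatin replicate 1. Serpinf2, encoding alpha-2-antiplasmin, had 13 and 8 counts after vehicle and 14 and 9 after cisplatin. Among the 13 members that were not tested, Serpine3 reached 12 counts in cisplatin replicate 1, Serpind1 11 counts in cisplatin replicate 2, Serpina1f, Serpina10 and Serpina6 had at most 3 counts in any library, and 8 had none.

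Intracellular serpins of clade B, which guard the cytosol against proteases released from granules and lysosomes, had 16 members, of which 6 were tested. Of these, 4 had a positive and 2 a negative log2 fold change, with a median of 0.36, and of 0.20 with the length offset. The 3 abundant members, Serpinb6, Serpinb1a and Serpinb9, were higher in both cisplatin libraries than in either vehicle library, as were 20.6% of all genes tested. Serpinb8 was lower in both, as were 21.2% of all genes tested, and the groups overlapped for the other 2.

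Serpinb6 was the most abundant clade B member at a mean of 223 FPKM, and measured 297 and 221 CPM after vehicle and 387 and 328 CPM after cisplatin. Serpinb1a, which encodes an inhibitor of neutrophil serine proteases, measured 106 and 78.7 CPM after vehicle and 173 and 129 CPM after cisplatin. Serpinb9, whose product inhibits granzyme B, measured 69.2 and 51.2 CPM after vehicle and 117 and 73.5 CPM after cisplatin. Replicate 1 was the higher library in each group for all 3 genes, as for the summed sensory neuron markers (24582 and 18275 CPM after vehicle, 29096 and 20800 CPM after cisplatin). The part of this difference between libraries in the result was not tested.

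The log2 fold change was 0.71 for Serpinb1a (SE 0.26, unadjusted p = 0.0359, edgeR adjusted p = 0.522), 0.66 for Serpinb9 (SE 0.29, edgeR adjusted p = 0.541) and 0.46 for Serpinb6 (SE 0.25, edgeR adjusted p = 0.585). Serpinb9 was at 0.30 without cisplatin replicate 1 and at 0.95 without cisplatin replicate 2, and Serpinb6 at 0.27 without vehicle replicate 2 and at 0.70 without vehicle replicate 1. The length offset left Serpinb1a at 0.55 with an unadjusted p of 0.0910. The neutrophil markers S100a8, S100a9, Mpo, Elane and Csf3r summed to 28.7 and 19.6 CPM after vehicle and 31.0 and 50.4 CPM after cisplatin, with all 5 fitted above 0. The neutrophil marker sum and Serpinb1a were both lowest in vehicle replicate 2. The sum was highest in cisplatin replicate 2 and Serpinb1a in cisplatin replicate 1. The part of these markers in the result was not tested.

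Serpinb8 had 29 and 21 counts after vehicle and 18 and 17 after cisplatin, Serpinb1b 37 and 18 against 43 and 28, and Serpinb6b 40 and 33 against 22 and 44. Only Serpinb8 of these 3 had separate groups, with cisplatin below vehicle. The near-identical paralogues of this clade can share reads, so the low values of Serpinb1b and Serpinb6b beside their abundant copies are uncertain. Among the 10 that were not tested, Serpinb10 reached 10 counts in cisplatin replicate 2, and 4 had none.

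5 of the tested clade B genes, Serpinb6, Serpinb1b, Serpinb9, Serpinb6b and Serpinb1a, lie in this order on chromosome 17 (Rnor_6.0) between 32190801 and 32911495. Their log2 fold changes along the chromosome were 0.46, 0.26, 0.66, -0.26 and 0.71. The RefSeq promoter windows of the outer genes of this cluster, which were both higher in the cisplatin libraries, contrast in their letters.
Serpinb6 (RefSeq symbol Serpinb6a), chr17:31076561-31076810, plus strand: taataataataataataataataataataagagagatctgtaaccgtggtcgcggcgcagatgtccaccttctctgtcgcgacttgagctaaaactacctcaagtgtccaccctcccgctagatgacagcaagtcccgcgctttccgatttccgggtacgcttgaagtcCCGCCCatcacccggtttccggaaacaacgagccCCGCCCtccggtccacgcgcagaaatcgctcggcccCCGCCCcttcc
Serpinb1a, chr17:31799196-31799445, plus strand: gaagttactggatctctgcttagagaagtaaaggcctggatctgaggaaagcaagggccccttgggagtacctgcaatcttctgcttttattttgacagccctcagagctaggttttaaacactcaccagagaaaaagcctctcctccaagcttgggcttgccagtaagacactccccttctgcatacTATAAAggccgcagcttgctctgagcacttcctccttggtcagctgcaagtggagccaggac
The Serpinb6 window held 3 GC boxes and 23 CG dinucleotides, whereas that of Serpinb1a held a TATA box, starting 62 bases before the start site, and 1 CG dinucleotide. The window of Serpinb9 held none of the motifs and 2 CG dinucleotides.

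**Figure D2:**
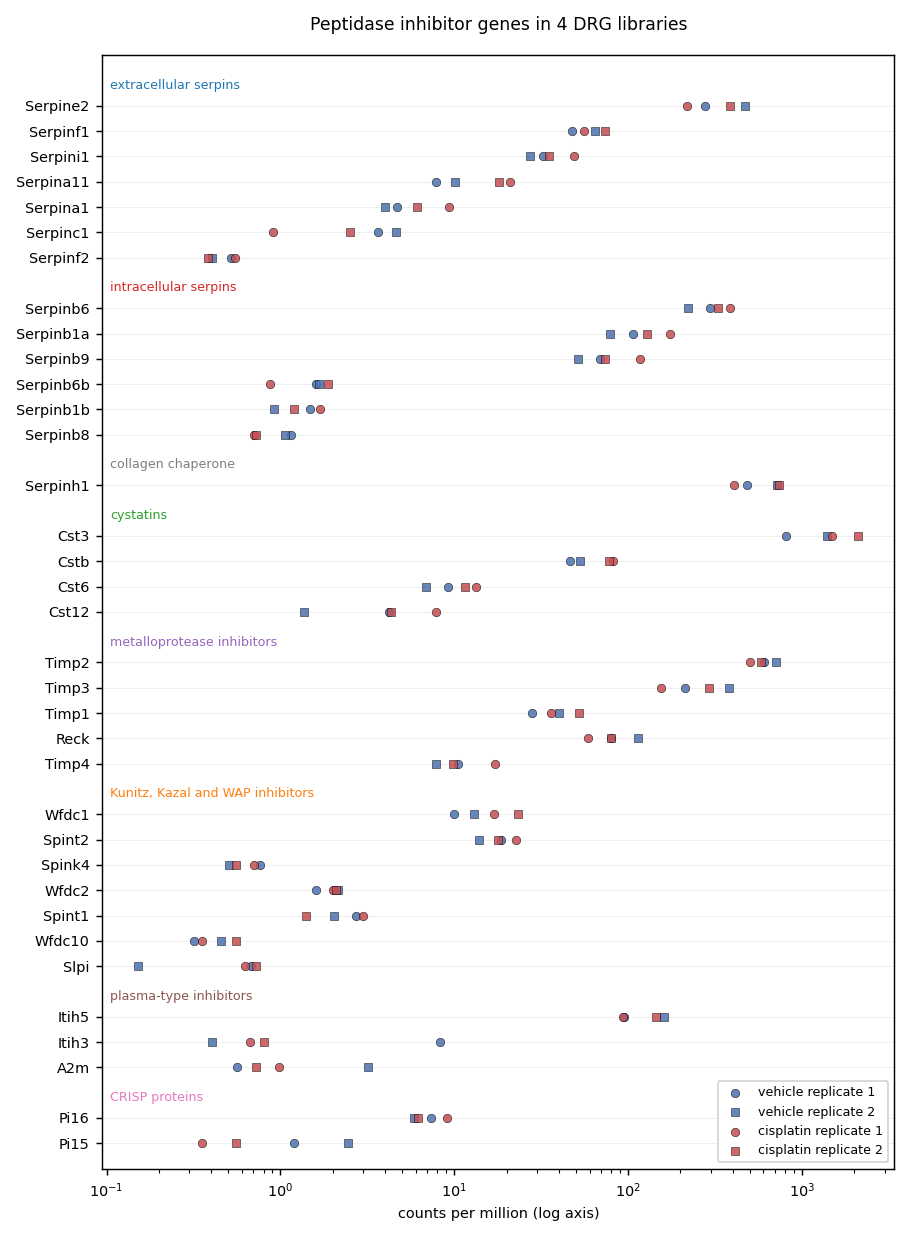
CPM on a log axis of the tested peptidase inhibitor genes reported here in each of the 4 libraries (blue, vehicle; red, cisplatin; circles, replicate 1; squares, replicate 2), by family and in order of mean FPKM within a family. Cst3 lies farthest to the right, at 815 to 2111 CPM, and the lone vehicle replicate 1 point of Itih3, at 8.23 CPM, lies far from the other libraries of that gene.

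Serpinh1 encodes HSP47, an endoplasmic reticulum chaperone of procollagen that has the serpin fold but inhibits no protease. It measured 483 and 721 CPM after vehicle and 405 and 741 CPM after cisplatin. The groups overlapped, replicate 2 was the higher library in each, and the log2 fold change was -0.07 (SE 0.39), but 0.25 without vehicle replicate 2 and 0.31 without cisplatin replicate 1. Its clients Col1a1 and Col1a2 belong to the fibroblast markers, which summed to 5650 and 7490 CPM after vehicle and 2746 and 5386 CPM after cisplatin. Most of that sum was Col1a1, at 4045 and 5312 CPM after vehicle and 1847 and 3766 CPM after cisplatin. Of the 5 markers 1 was fitted above 0, Dcn, at 470 and 841 CPM after vehicle and 494 and 873 CPM after cisplatin.

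Metalloprotease inhibitors comprised Timp1 to Timp4 and Reck, and all 5 were tested. Their log2 fold changes were positive for 2 and negative for 3, with a median of -0.28, and of -0.32 with the length offset. The groups were separate for Timp2 alone, with cisplatin below vehicle, as for 21.2% of all genes tested.

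Timp2, which also takes part in the activation of pro-MMP2 by MMP14, was second to Cst3 among all members at a mean of 353 FPKM. It measured 607 and 708 CPM after vehicle and 503 and 582 CPM after cisplatin. Both cisplatin libraries were below both vehicle libraries, but by less than the spread within either group, and the log2 fold change was -0.28 (SE 0.25, edgeR adjusted p = 0.731).

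Timp3 encodes the matrix-bound inhibitor that also blocks ADAM proteases, and measured 213 and 381 CPM after vehicle and 155 and 291 CPM after cisplatin. Timp1, an inhibitor that is inducible by inflammation in many tissues, measured 28.1 and 40.0 CPM after vehicle and 36.2 and 51.9 CPM after cisplatin. In both genes the groups overlapped and replicate 2 was the higher library of each group. The log2 fold changes were -0.41 (SE 0.42) for Timp3, which was 0.07 without vehicle replicate 2, and 0.37 (SE 0.28) for Timp1, which was 0.11 with the length offset.

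Reck encodes a membrane-anchored inhibitor of matrix metalloproteases and measured 79.6 and 114 CPM after vehicle and 59.0 and 79.9 CPM after cisplatin. Timp4 measured 10.5 and 7.87 CPM after vehicle and 17.1 and 9.78 CPM after cisplatin. The groups overlapped for both, and in Reck vehicle replicate 1 and cisplatin replicate 2 were nearly equal. Their log2 fold changes were -0.48 (SE 0.27) for Reck and 0.54 (SE 0.35) for Timp4. Reck was at -0.71 without cisplatin replicate 2 and at -0.19 without vehicle replicate 2, and Timp4 at 0.093 without cisplatin replicate 1 and at 0.89 without cisplatin replicate 2.

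Kunitz, Kazal and WAP inhibitors are small secreted or membrane proteins named after their inhibitor domains. Of 31 members 17 had any count and 7 were tested, 5 with a positive and 2 with a negative log2 fold change. The median was 0.23, and -0.08 with the length offset, under which 3 remained above 0. The groups were separate for Wfdc1 alone, with cisplatin above vehicle, as for 20.6% of all genes tested.

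Wfdc1, a secreted WAP domain protein, measured 9.95 and 13.0 CPM after vehicle and 16.9 and 23.1 CPM after cisplatin. Both cisplatin libraries were above both vehicle libraries, and replicate 2 was the higher library in each group. A log2 fold change of 0.81 was fitted (SE 0.26, unadjusted p = 0.0245, edgeR adjusted p = 0.522), and of 0.65 with the length offset, with an unadjusted p of 0.0444.

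Spint2 encodes a membrane Kunitz inhibitor of hepatocyte growth factor activator and measured 18.7 and 13.8 CPM after vehicle and 22.6 and 17.8 CPM after cisplatin, with overlapping groups. Spint1, its relative, had 68 and 40 counts after vehicle and 76 and 33 after cisplatin. Slpi, encoding the secretory leukocyte protease inhibitor, had 17 and 3 counts after vehicle and 16 and 17 after cisplatin, and a log2 fold change that was 2.12 without vehicle replicate 1 and -0.0039 without vehicle replicate 2. Wfdc2, Spink4 and Wfdc10 had between 8 and 51 counts in each library and fold changes of 0.14, -0.01 and 0.23 on the log2 scale. Of the 24 that were not tested, none exceeded 9 counts in a library and 14 had no count, among them Spink1, Spink3, second copies of Slpi and Spink5, and all 3 copies of Spink14.

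Plasma-type inhibitors comprised A2m, the broad protease trap alpha-2-macroglobulin, and the Itih genes, whose products are heavy chains that are transferred to hyaluronan. Of 6 members 3 were tested, and all 3 had a negative log2 fold change and overlapping groups. The median of -1.12 rested on single libraries.

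Itih5 was the abundant member of this family at a mean of 85.6 FPKM, and measured 95.1 and 160 CPM after vehicle and 93.9 and 144 CPM after cisplatin, with a log2 fold change of -0.10 (SE 0.34), but 0.33 without vehicle replicate 2 and 0.19 without cisplatin replicate 1. It followed the replicate number, with replicate 2 the higher library in each group.

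Itih3 had 206 counts in vehicle replicate 1 and 8, 17 and 19 counts in vehicle replicate 2 and cisplatin replicates 1 and 2. Its log2 fold change was -2.55 (SE 1.24, edgeR adjusted p = 0.555), and 0.86 without vehicle replicate 1. That library also held the highest levels of oligodendrocyte and astrocyte markers, the latter at 85.8 CPM against 14.3 to 30.6 CPM, and their part in the result was not tested.

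A2m had 63 counts in vehicle replicate 2 and 14, 25 and 17 in vehicle replicate 1 and the cisplatin libraries. Its log2 fold change was -1.12 (SE 0.85), and 0.61 without vehicle replicate 2. The hepatocyte markers were at or near the floor of 3 counts in that library, with 0 to 4 counts each. Itih4, Itih2 and Itih1 had at most 8 counts in any library and were not tested.

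Pi15 and Pi16 carry the CRISP-type domain and were both tested. Pi15 had 30 and 48 counts after vehicle and 9 and 13 counts after cisplatin, that is, 1.20 and 2.44 CPM against 0.354 and 0.553 CPM. Both cisplatin libraries were below both vehicle libraries. Its log2 fold change was -1.99 (SE 0.59, unadjusted p = 0.0169, edgeR adjusted p = 0.522), -2.06 with the length offset, and between -2.41 and -1.39 when each library was left out. Pi15 passed the filter on low counts through the vehicle libraries, where it was higher. At 9 counts in cisplatin replicate 1, it was not tested when at least 10 counts were asked in every library. Pi16 measured 7.39 and 5.84 CPM after vehicle and 9.05 and 6.21 CPM after cisplatin, with overlapping groups and a log2 fold change of 0.20 (SE 0.31).

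The groups overlapped for 20 of the 36 members, where 58.2% of all genes tested did, and libraries of the same group differed in a common order for most of them. Replicate 1 was the higher library in both groups for 14 of the 36 members, where 34.2% of all genes tested were, and replicate 2 for 15, where 38.2% were. The order was mixed for the remaining 7. Replicates are numbered as in the sample titles, whereas the count columns of the cisplatin libraries carry other numbers. The common order depends on this numbering. Replicate 2 was higher in both groups for 4 of the 5 metalloprotease inhibitors, Serpine2, Serpinh1, Itih5 and Cst3, and replicate 1 for 4 of the 6 clade B serpins, Serpini1, Cst6, Cst12 and Timp4. The Schwann cell markers, which were higher in replicate 2 of each group, had a median log2 fold change between the groups of -0.43 with 0 of 7 above 0. The sensory neuron markers had a median of 0.35 with 14 of 14 above 0. The part of these cell types in the members' values was not tested.

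**Figure D3:**
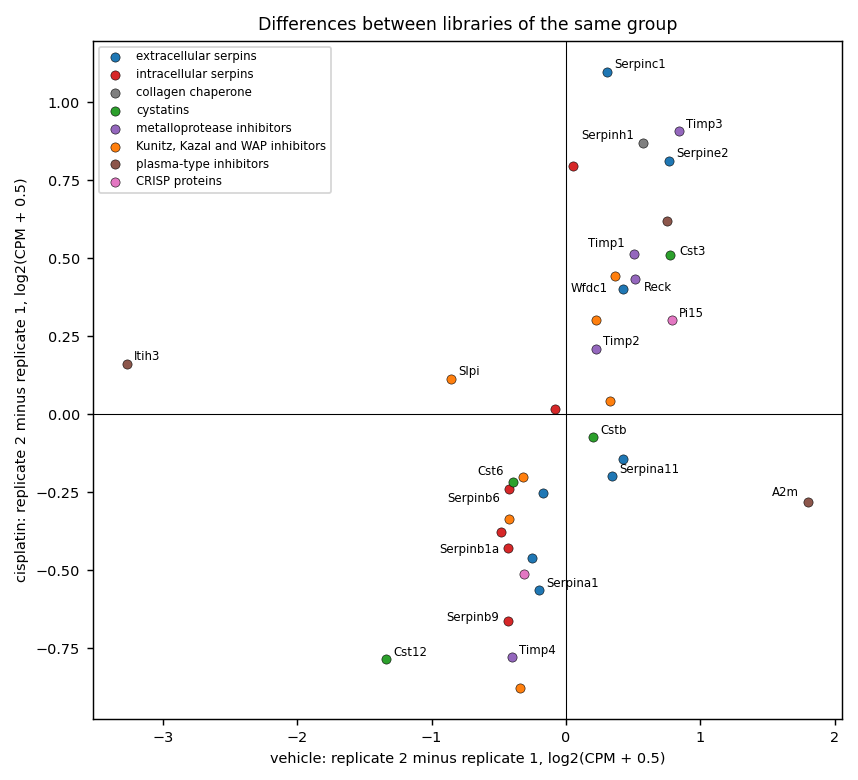
Difference between replicate 2 and replicate 1 on the log2(CPM + 0.5) scale within the vehicle group (horizontal axis) and within the cisplatin group (vertical axis) for the 36 tested inhibitor genes, coloured by family. The upper right corner holds 15 genes with replicate 2 higher in both groups and the lower left corner 14 with replicate 1 higher in both, and Itih3 lies alone on the far left.

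Of the proteases listed from the classes that these inhibitors act on, 70 were in the count table and 53 were tested, and edgeR called 0 of them. Without adjustment, at p under 0.05 and at least 1.5-fold, 1 was higher after cisplatin, where 2.77% of all genes tested were, and 3 were lower, where 5.18% were. The log2 fold change was above 0 for 26 and below 0 for 27, with a median of -0.03, compared with 0.22 for the inhibitors. The proteases' median was 0.16 without vehicle replicate 2 and 0.13 without cisplatin replicate 1. The difference between these medians was not tested.

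Cysteine cathepsins and legumain, the targets of the cystatins, had a median log2 fold change of 0.29 over 9 genes, of which 7 were above 0. With the length offset the median was 0.20. Ctsb, the most abundant of them at a mean of 632 FPKM, measured 1271 and 966 CPM after vehicle and 1682 and 1102 CPM after cisplatin, with overlapping groups. Ctsl measured 207 and 195 CPM after vehicle and 242 and 251 CPM after cisplatin, and the groups were separate. Lgmn, encoding legumain, measured 228 and 185 CPM after vehicle and 297 and 220 CPM after cisplatin. The log2 fold changes of Ctsb, Ctsl and Lgmn were 0.32, 0.29 and 0.32, each below the 0.63 to 1.11 of the 4 cystatins. With the length offset they were 0.26, 0.20 and 0.27, against 0.39 to 0.80 for the cystatins. No test of this difference was made. On the FPKM scale the mean level of Cst3 was above that of Ctsb.

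Plasminogen activators and related serine proteases, which include targets of Serpine2 and Serpini1, had a median log2 fold change of 0.25 over 7 genes. Plat, encoding tissue plasminogen activator, measured 69.8 and 116 CPM after vehicle and 123 and 117 CPM after cisplatin, so that vehicle replicate 2 was nearly equal to cisplatin replicate 2. Htra1, a secreted serine protease, measured 308 and 284 CPM after vehicle and 390 and 334 CPM after cisplatin. Prss12, encoding neurotrypsin, measured 88.2 and 167 CPM after vehicle and 45.8 and 150 CPM after cisplatin, with overlapping groups. F10, encoding coagulation factor X, had 5 and 8 counts after vehicle and 20 and 24 counts after cisplatin. Its log2 fold change was 1.59 (unadjusted p = 0.0426, edgeR adjusted p = 0.523). It passed the filter on low counts only through the cisplatin libraries, where it was higher.

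Matrix metalloproteases, the targets of the TIMPs and Reck, had a median of -0.28 over 11 genes, and of -0.17 with the length offset, where that of their inhibitors was -0.28 and -0.32. The difference was not tested. Mmp15 measured 570.5 and 889 CPM after vehicle and 409 and 643 CPM after cisplatin. Mmp14 measured 156 and 253 CPM after vehicle and 109 and 158 CPM after cisplatin, and Mmp2 91.2 and 152 CPM after vehicle and 104 and 145 CPM after cisplatin. The groups overlapped for all 3. ADAM and ADAMTS proteases had a median of -0.37 over 16 genes, 13 of which were below 0, and of -0.14 with the length offset, their median length being 4144 bases. Adam10, a sheddase and the most abundant of them by FPKM, measured 116 and 185 CPM after vehicle and 64.8 and 127 CPM after cisplatin, Adam19 167 and 170 against 205 and 154 CPM, and Adam15 77.7 and 64.0 against 78.3 and 60.3 CPM, all with overlapping groups. The 3 proteases lower past the unadjusted threshold were Adam12, Adamts3 and Adamts5, with log2 fold changes of -2.02, -0.87 and -0.72 and edgeR adjusted p-values of 0.522, 0.522 and 0.523. Adam12, at 49 and 31 counts after vehicle and 9 and 12 after cisplatin, passed the filter through the vehicle libraries, where it was higher.

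Leukocyte serine proteases, which include targets of Serpina1, Slpi and Serpinb1a, were near the limit of detection, with summed levels of 6.99 and 7.72 CPM after vehicle and 7.16 and 14.2 CPM after cisplatin. Their median log2 fold change was 0.65 over 7 genes, and Prtn3, Mcpt1 and Cma1, the 3 most abundant by FPKM, lay between 0.866 and 4.08 CPM with overlapping groups. The highest sum was in cisplatin replicate 2, which also had the highest neutrophil marker sum, but Elane is counted in both sums. In that library Elane was at 2.00 CPM, and Mcpt1, at 4.08 CPM, and Prtn3, at 2.68 CPM, were the largest parts. A link between the sums was not tested. Membrane serine proteases, the targets of Spint1 and Spint2, had a median of -0.07 over 3 genes, St14, Hpn and Tmprss2, which lay between 0.197 and 3.02 CPM with overlapping groups.

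Lrp1 encodes the receptor that clears serpin and A2m complexes from the cell surface. It measured 229 and 279 CPM after vehicle and 121 and 177 CPM after cisplatin, and the groups did not overlap. The log2 fold change was -0.77 (SE 0.27, unadjusted p = 0.0316, edgeR adjusted p = 0.522), and -0.28 with the length offset. Plaur, encoding the urokinase receptor, measured 11.2 and 11.9 CPM after vehicle and 14.3 and 15.3 CPM after cisplatin, with a log2 fold change of 0.36 (SE 0.21).

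**Figure D4:**
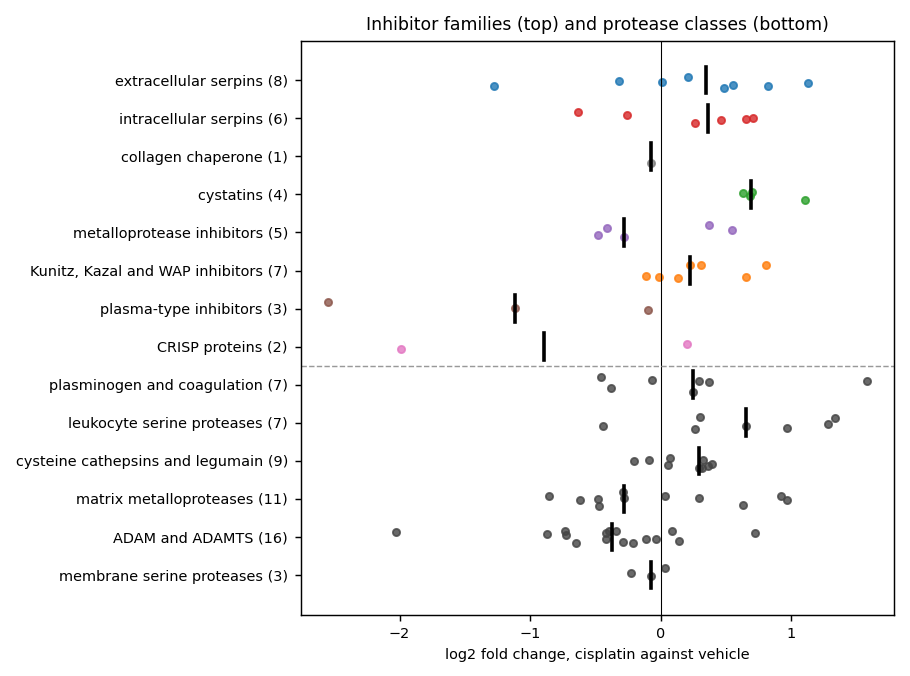
Log2 fold change, cisplatin against vehicle, of each tested inhibitor gene by family (coloured points) and of each tested protease gene by class (grey points), with the number of genes in brackets and the median as a black bar. The cystatin bar lies at 0.69, the cathepsin bar at 0.29, and the bars of metalloprotease inhibitors and matrix metalloproteases both at -0.28. With the length offset (not drawn) these medians became 0.43, 0.20, -0.32 and -0.17, in the same order.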

How the data were processed

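RNA from pooled lumbar DRGs (2 libraries after vehicle, 2 after cisplatin) was enriched for polyadenylated transcripts and sequenced. The authors mapped the reads to the Ensembl Rnor_6.0 genome and deposited whole-number counts per gene without normalisation. The authors also deposited FPKM values, which equal the counts divided by gene length and by a constant per library. The submitters' processing notes list HISAT2 2.0.5, StringTie 1.3.3b, featureCounts 1.5.0-p3, DESeq2 1.20.0, edgeR 3.22.5 and GATK 4.1.4.1. Whether counting used strand is not given in the sources used here, so overlapping, antisense and near-identical genes are uncertain.

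Samples were grouped from their labels. The members, protease classes and cell type markers were chosen with earlier results of these data known. filterByExpr kept 14719 of 22293 protein-coding genes. Counts were scaled by TMM (factors 1.10, 0.941, 1.03 and 0.938) and compared with edgeR 4.0.16 in R 4.3.3 (glmQLFit, glmQLFTest, two-sided), with Benjamini-Hochberg adjustment over all genes tested. The standard error was the fitted change divided by the square root of F. A called gene had an adjusted p under 0.05 and at least a 1.5-fold change. A floor of 3 counts corresponded to 0.118 to 0.152 CPM and covers counting error only, since the libraries carried no molecular identifiers and reads can be PCR copies. The length offset was a lowess curve of log2 counts on gene length (span 0.3) per library.

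Members were described in full if called, if at an unadjusted p under 0.05, or if among the 3 most abundant of a family by mean FPKM. Members below the filter were named if a library held at least 10 counts, and the other members named were chosen after their values were seen. Proteases were named by the same rule within each class, and Lrp1 and Plaur, which are not proteases, were kept out of their counts. The alternatives were scaling by DESeq2's size factors or by library size only, dropping the filter or asking for 10 counts in each library, fitting all biotypes, DESeq2 1.42.0, limma 3.58.1 on log2(FPKM + 1) and log2(FPKM + 0.1), the length offset, a replicate block with and without it, and leaving out each library. A run on simulated counts checked the code only. Its libraries were independent, varied less than these and had no length trend or shared replicate order. It cannot show how the fits perform on these data. Promoter windows of 250 bases came from RefSeq (GRCr8), matched by symbol for 68 of 88 symbols, and a rat genome was not used here. Values of some members are left out of the text and figures, but these members remain in the counts and medians.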

Additional observations from a re-analysis of the deposited data

How the results depend on the processing

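The count of 0 inhibitor genes and 0 proteases called held under every alternative without a replicate block. Over all genes tested, edgeR called 1, against 4 without the filter, 2 with at least 10 counts in every library, 124 by DESeq2 (46 higher, 78 lower), 4 by limma on log2(FPKM + 1), 2 on log2(FPKM + 0.1) and 0 to 8 when each library was left out. The inhibitors' median log2 fold change of 0.22 was 0.17 with library size alone, 0.28 without the filter, 0.26 with at least 10 counts in every library, 0.29 by DESeq2, 0.13 by limma on log2(FPKM + 1), 0.089 with the length offset and 0.20 to 0.42 when each library was left out. The inhibitors past an unadjusted p under 0.05 and 1.5-fold numbered 6, against 3 with the length offset and 5 with library size alone. They numbered 8 without the filter and by DESeq2, and 7 by limma on either FPKM scale. With at least 10 counts in every library they numbered 5, all higher, as Pi15 was then not tested. Leaving out a library moved the proteases' median from -0.24 to 0.16.

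No label says that a replicate number marks a shared litter or batch, and same-numbered libraries are different rats. The differences between replicates 2 and 1 correlated between the groups over 14719 genes (Pearson's r 0.44, Spearman's rho 0.57, genes not being independent replicates). With the replicate block edgeR called 1532 genes (3.36% higher, 7.05% lower), 10 inhibitors (8 higher, 2 lower) and 7 proteases (1 higher, 6 lower), with 11 inhibitors past the unadjusted threshold. With the block and the length offset it called 963 genes (1.73% higher, 4.82% lower), 3 inhibitors (2 higher, 1 lower) and 3 proteases (1 higher, 2 lower), and the inhibitors' median was 0.10.

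Some single genes turned sign. Under the length offset, without and with the replicate block, these were Adam15 (0.035 and 0.032), Hpn (-0.067 and -0.058), Wfdc2 (-0.12 and -0.11), Wfdc10 (-0.083 and -0.097) and, without the block only, St14 (0.0078). With library size alone they were Hpn (-0.011), Mmp2 (-0.0021) and Serpinf2 (-0.051), and Spink4 turned with limma (0.0085 and 0.016) and with the block (0.00063). When each library was left out, the sign turned for A2m (-1.89 to 0.61), Itih3 (-3.47 to 0.86), Itih5 (-0.44 to 0.33), Pi16 (-0.085 to 0.45), Serpinb1b (-0.032 to 0.66), Serpinb6b (-0.91 to 0.20), Serpine2 (-0.78 to 0.12), Serpinf1 (-0.0079 to 0.44), Serpinf2 (-0.27 to 0.24), Serpinh1 (-0.57 to 0.31), Slpi (-0.0039 to 2.12), Spink4 (-0.26 to 0.32), Spint1 (-0.75 to 0.33), Timp3 (-0.94 to 0.073), Wfdc10 (-0.0055 to 0.52) and Wfdc2 (-0.053 to 0.36). Among the proteases it turned for Adam15 (-0.22 to 0.14), Adam19 (-0.12 to 0.28), Cma1 (-0.26 to 0.72), Ctsb (-0.012 to 0.59), Hpn (-0.18 to 0.29), Mmp2 (-0.28 to 0.46), Prss12 (-1.48 to 0.25), Prtn3 (-0.18 to 0.91), St14 (-0.61 to 0.33) and Tmprss2 (-1.43 to 0.70). The causes were not tested. With a library left out, the lone library of its group is assumed to vary like the others. Of the 92 inhibitors, 56 did not pass the filter on low counts, 30 of them without a count in any library.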
